A study of Mus musculus with 2 samples.

Results

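Venous endothelial cells of the mouse hippocampus were taken from single-cell RNA libraries as 552 of 11605 cells that passed filtering, 325 for Mr1+/+ and 227 for Mr1-/-. They were chosen by the transcripts they carried. A member had UMIs (unique molecular identifiers, 1 for each captured transcript molecule) of at least 3 of the endothelial genes Cldn5, Flt1, Pecam1, Ly6c1, Itm2a and Slco1a4, and of at least 2 of the venous genes Vwf, Slc38a5, Tmem252, Lcn2 and Nr2f2. It had none of the arterial genes Gkn3, Sema3g, Bmx, Vegfc and Fbln2, fewer than 2 UMIs of Plvap (a gene of fenestrated endothelium), and at most 1 of Vtn, Kcnj8, Mog, Aqp4 and C1qa, which mark mural cells, oligodendrocytes, astrocytes and microglia. The levels of these 22 genes in the members follow from the choice and are given as a description only.

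The study compared hippocampal cells of untreated 7-month-old wild-type mice (Mr1+/+) with those of mice lacking Mr1 (Mr1-/-), the MHC-like protein that displays microbial vitamin B derivatives and so activates MAIT cells. Live nucleated cells (DAPI-, Draq5+) were sorted and prepared with a droplet kit that reads the 5′ end of transcripts. There was 1 library for each genotype, and the number, sex and background of the mice in it are not given in the sources used here. Genotype therefore cannot be told apart from the mice, the sort or the library preparation, and a difference between genotypes has no replicate check.

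Blood leaves brain capillaries through postcapillary venules, which open into larger veins. Venular endothelium is the main site where circulating leukocytes adhere and cross, through selectins, ICAM-1 and VCAM-1, and it stores von Willebrand factor for clotting, while the barrier transporters are mostly a property of capillaries. Endothelial identity changes step by step from artery through capillary to vein, so that neighbouring types share many transcripts.

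Of the endothelial cells, defined by the endothelial genes and the limit on other types, 401 for Mr1+/+ and 269 for Mr1-/- had at least 2 venous genes. An arterial gene removed 76 and 41 of these, and Plvap alone removed 0 and 1. The members held 986382 and 640482 UMIs, with medians of 2811 and 2569 per cell. For comparison, capillary cells (378 and 569 cells) were the endothelial cells with no venous or arterial gene, and arterial cells (138 and 163 cells) had at least 2 arterial genes and at most 1 venous gene. Capillary cells were shallower, with medians of 1908 and 2131 UMIs, and arterial cells had 2946.5 and 2652. A cell with fewer UMIs has less chance to show a venous gene, so depth is part of the choice. The libraries shared 44 barcodes, of which 4 and 5 belonged to members, and no shared barcode was a member in both. A doublet caller marked 21 and 8 members, which were kept.

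Mr1 itself was counted 4 times, in 4 cells, among the Mr1+/+ members and 0 times among the Mr1-/- members. A count of 0 at this depth allows up to 4.68 CPM (UMIs scaled to the summed UMIs of the cells compared), which is above the 4.06 CPM of the Mr1+/+ members, so the difference was not detectable in these cells. Microglia, where Mr1 was higher, had 30 UMIs for Mr1+/+ and 0 for Mr1-/-.

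Membership rested mainly on 3 of the 5 venous genes. Vwf, which encodes von Willebrand factor, stood at 516 and 542 CPM in Mr1+/+ and Mr1-/- members. Slc38a5, a glutamine transporter gene, had 348 and 465 CPM, and Tmem252, which encodes a membrane protein, had 634 and 532 CPM. Lcn2, a secreted iron-siderophore carrier, had 43.6 and 116 CPM, and Nr2f2, the venous fate regulator COUP-TFII, had 48.7 and 40.6 CPM. Among Mr1+/+ members 68.6% had a Vwf UMI, a share that follows in part from the rule. Of Mr1+/+ microglia, which should lack the gene and had a median of 3740 UMIs, 0.532% had one. The 5 genes are protein coding in the annotation of the mm10 build. Vwf lies at chr6:125546774-125686679 (plus strand), Slc38a5 at chrX:8271133-8280179 (plus strand), Tmem252 at chr19:24674008-24682233 (plus strand), Lcn2 at chr2:32384633-32388252 (minus strand) and Nr2f2 at chr7:70351944-70366735 (minus strand).

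Most members stood just inside the threshold. Exactly 2 venous genes were found in 242 Mr1+/+ members (74.5%) and 174 Mr1-/- members (76.7%), 3 genes in 66 and 45, 4 genes in 13 and 8, and all 5 in 4 and 0. The pair of Vwf and Tmem252 alone accounted for 105 and 65 members, Slc38a5 with Tmem252 for 79 and 50, and Vwf with Slc38a5 for 35 and 47. Lcn2 or Nr2f2 was present in only 59 and 30 members. Just outside the threshold were 470 and 448 endothelial cells with a single venous gene and no arterial gene. That gene was Tmem252 in 267 of the Mr1+/+ cells (56.8%) and 161 of the Mr1-/- cells (35.9%), Vwf in 102 and 149, and Slc38a5 in 92 and 126.

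Other venous genes followed the number of rule genes in a cell. Over endothelial cells with 0, 1, 2, 3 and 4 to 5 venous genes and no arterial gene, 20 other genes known from veins or venules summed to 575, 616, 804, 1625 and 5617 CPM for Mr1+/+ and to 599, 634, 1004, 2708 and 7132 CPM for Mr1-/-. Members with 2 venous genes thus had higher sums than capillary cells on this list, and the highest values lay in the 83 and 53 members with 3 or more. The last step holds only 17 and 8 cells, and median depth increased along the steps from 1908 to 3343 UMIs for Mr1+/+ and from 2131 to 3244 for Mr1-/-. The steps are set by venous genes of the same cells, so genes that accompany those are bound to rise. The steps are therefore a description only and are given without a test.

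Single genes showed where the change lay along the steps. Lrg1, a secreted regulator of vessel growth, went 0, 2.44, 5.82, 80.8 and 1052 CPM for Mr1+/+ and 0, 0, 12.8, 188 and 2161 CPM for Mr1-/-. Vcam1, the adhesion molecule for lymphocytes and monocytes, went 1.30, 7.33, 18.9, 46.8 and 1099 CPM and 4.71, 1.80, 51.2, 160.1 and 864 CPM. Both genes were thus carried by a minority of members, with Lrg1 UMIs in 25 and 14 cells and Vcam1 UMIs in 25 and 28 cells. Tgm2, a protein-crosslinking enzyme, was spread more widely (131 and 94 cells) and was also highest at the last step, with 145, 119, 165, 332 and 634 CPM and 132, 124, 198, 327 and 828 CPM. Ackr1, the chemokine-binding receptor of postcapillary venules, had UMIs in no more than 5 and 2 members, and Selp, which encodes P-selectin, in 0 and 1.

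Arterial genes ran the other way, while capillary genes differed among themselves. Summed arterial genes outside the rule went 3370.3, 2894, 2741, 1923 and 1795 CPM for Mr1+/+ and 2883, 2695, 2426, 2039.6 and 1657 CPM for Mr1-/-. Mfsd2a, the lipid transporter of barrier capillaries, went 368, 331, 281, 191 and 46.4 CPM and 338, 251, 256, 104 and 108 CPM. Car4, the capillary carbonic anhydrase, was highest in the middle, with 1647, 1816, 2436, 2157 and 1083 CPM and 1919, 2186, 2428, 1949 and 684 CPM. The 26 genes of barrier transport as a whole were highest in cells with 2 venous genes and lowest in cells with 4 to 5. Their sums were 15994, 16044, 17765, 15079 and 13864 CPM for Mr1+/+ and 15581, 15739, 16301, 13769 and 8248 CPM for Mr1-/-. The members with 2 venous genes, the greater number, thus lay between capillary cells and the members with 3 or more on the venous and arterial lists, in both libraries.

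**Figure D1:**
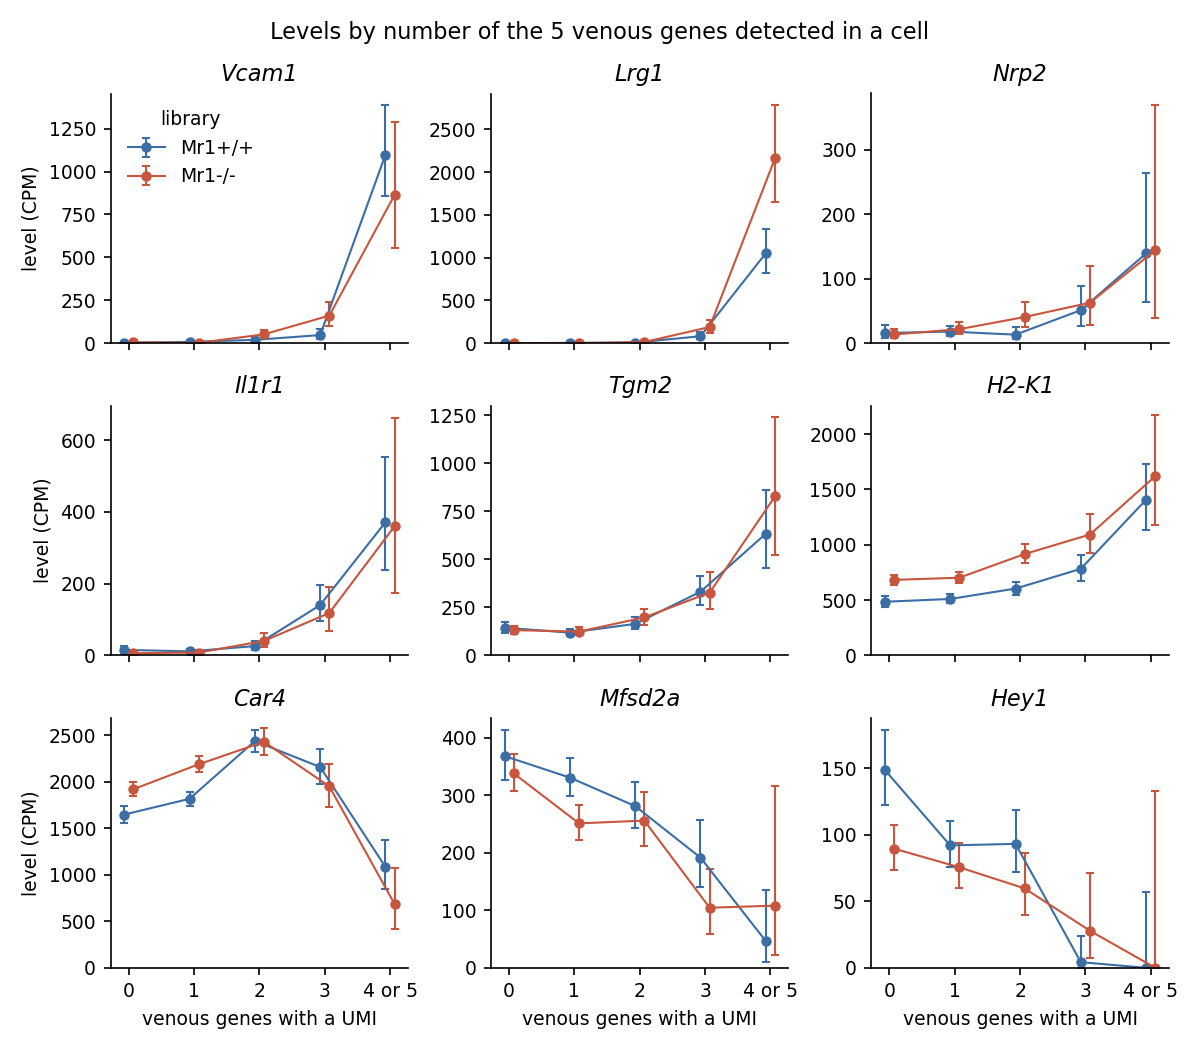
Levels in CPM (vertical axis, linear) of 9 genes outside the rule, in endothelial cells with no arterial gene grouped by how many of the 5 venous genes had a UMI (horizontal axis), in the Mr1+/+ library (blue) and the Mr1-/- library (red), with exact 95% Poisson intervals that cover counting error only. Vcam1, Lrg1, Nrp2, Il1r1, Tgm2 and H2-K1 are highest at 4 or 5 venous genes (17 and 8 cells), Car4 peaks at 2, and Mfsd2a and Hey1 are highest in capillary cells, at 0.

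Transcripts of other cell types were also found in the members. Summed over 7 microglial markers, members had 584 and 1051 CPM, against 1708 and 1713 CPM in capillary cells and 872 and 772 CPM in arterial cells. Only 5 and 6 members had UMIs of at least 2 microglial markers. Smooth muscle markers summed to 1153 and 1077 CPM in members, 1662 and 17.3 CPM in capillary cells and 143 and 992 CPM in arterial cells, and 10 and 3 members had UMIs of at least 2 of them. Astrocyte markers had 448 and 361 CPM in members, and pericyte markers 153 and 60.9 CPM. All 6 fibroblast markers were at 0 in the members of both libraries.

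Members were then compared with capillary cells over the genes the rule did not use, with the UMIs of each type summed in each library and the libraries as replicates of the type. By edgeR's quasi-likelihood test with Benjamini-Hochberg adjustment, 15 of 8140 genes were higher in venous cells (0.184%) and 12 were lower (0.147%) at an adjusted p below 0.05, or 0.332% in either direction. Without adjustment, 344 and 353 genes had a p under 0.05. With 2 libraries of different genotype, the test rests on differences shared by both. The number of calls depends on the settings: 3 and 1 genes passed by DESeq2, 61 and 56 without called doublets, and 3 and 8 in cells of at least 3000 UMIs. The libraries are separate samples, but nothing in the sources says how many mice each holds. The p-values therefore rest on how differences between types vary between these libraries, and not on a known spread between mice. That spread is estimated in part across genes, and the arterial sums enter it as well.

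Of the 20 other venous genes 13 were tested, and 5 rose, among them Lrg1, Vcam1, Il1r1 and Tgm2. No member of the list fell. The median difference over the 13 genes was a log2 value of 1.35, which does not change with Lrg1 at its lower bound, against 0.000132 over all genes tested. This list was drawn up with earlier results of these data known. Venous cells had at least 2 venous genes of the rule and capillary cells had none, so genes that accompany those are bound to differ. Lrg1 had 92.3 and 145 CPM in Mr1+/+ and Mr1-/- venous cells and was not found in capillary cells of either library, so that its pooled level was at least 76.9-fold higher by the limit of 3 UMIs over both libraries. Vcam1 had 96.3 and 111 CPM in venous and 1.30 and 4.71 CPM in capillary cells, a log2 difference of 4.93 ± 0.31 SE, adjusted p = 3.45e-05. Neither gene overlapped between the types, as was true of 38.1% of all genes tested.

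Il1r1, the receptor through which interleukin-1 acts on vessels, had 76.0 and 71.8 CPM in venous and 15.7 and 6.29 CPM in capillary cells, a log2 difference of 2.85 ± 0.32 SE, adjusted p = 0.00394. Tgm2 had 235 and 254 against 145 and 132 CPM, a smaller difference of 0.84 ± 0.13 SE, adjusted p = 0.0191. In both genes both venous values lay above both capillary values. Nrp2, the semaphorin and VEGF-C co-receptor of veins and lymphatics, had 30.4 and 49.96 against 15.7 and 13.4 CPM and did not pass (adjusted p = 0.199). Icam1 had 71.0 and 43.7 against 14.4 and 29.9 CPM (adjusted p = 0.215), and Ephb4, the venous receptor of arterial ephrin-B2, had 81.1 and 111 against 75.7 and 75.4 CPM (adjusted p = 0.595).

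The other genes that rose against capillary cells came from several functions. Tmsb10, an actin-binding thymosin, had 5262 and 6117 CPM in venous and 2830.1 and 3054 CPM in capillary cells, a log2 difference of 0.97 ± 0.05 SE, adjusted p = 6.62e-06. Cyp2e1, a cytochrome P450, had 40.6 and 92.1 against 3.91 and 10.2 CPM (log2 difference 3.21, adjusted p = 0.00394). The types did not overlap in either gene. H2-K1, a classical MHC class I heavy chain, had 699.5 and 987 against 485 and 683 CPM (log2 0.55, adjusted p = 0.0177). It was the only one of 15 class I presentation genes tested that passed, while B2m, its light chain, had 479 and 682 against 449 and 596 CPM (adjusted p = 0.640). Others that rose were Ndn, Gpm6a, Fxyd6, Tmem176a, Hs3st1 and Rnase4, with log2 differences of 0.93 to 2.91.

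Some arterial genes fell against capillary cells too. Of 20 arterial genes tested, 4 fell and none rose, with a median log2 difference of -0.47. Alpl, the alkaline phosphatase of arterial and capillary endothelium, had 67.9 and 74.9 CPM in venous and 164 and 152 CPM in capillary cells (-1.12 ± 0.17 SE, adjusted p = 0.0191). Hey1, a Notch target that marks arterial fate, had 65.9 and 49.96 against 149 and 89.6 CPM (-0.995, adjusted p = 0.0441). Glul, which encodes glutamine synthetase, had 845 and 807 against 1358 and 1176 CPM, and Stmn2, which encodes a microtubule-binding protein, had 52.7 and 45.3 against 108 and 95.1 CPM (-0.60 and -1.01, adjusted p = 0.00471 and 0.0205). Lypd1 showed the largest fall among the 12 genes, with 5.07 and 4.68 against 63.9 and 33.0 CPM (-3.19 ± 0.43 SE, adjusted p = 0.0123). The matrix protease inhibitor Timp3 fell by 0.74 on the log2 scale. Both types had to lack the arterial rule genes, in venous cells at a median of 2811 and 2569 UMIs and in capillary cells at 1908 and 2131, and the part of this choice in the difference was not tested.

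Others that fell were Selenop, which encodes a selenium carrier, and Trem2, Tmem119, Gpr34 and Lgmn, which are known from microglia. Lgmn, a lysosomal protease, had 73.0 and 65.6 CPM in venous and 128 and 148 CPM in capillary cells. The microglial markers given above moved with them, at 584 and 1051 CPM against 1708 and 1713 CPM, and without the doublets called by Scrublet the log2 difference of Lgmn was 0.55 instead of -0.95. The part of microglial RNA in these falls was not tested further.

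No difference in barrier transport was detected between venous and capillary cells. None of its 25 tested genes passed in either direction, and their median log2 difference was 0.03. Slc2a1, the glucose transporter GLUT1, had 2080.3 and 1322 CPM in venous and 1769 and 1183 CPM in capillary cells, with an adjusted p of 0.393. Mfsd2a, at 244 and 215 against 368 and 338 CPM, did not overlap and had an adjusted p of 0.0557. The 16 haemostasis genes tested had a median of 0.41 with 0 calls. Thbd, the thrombin receptor thrombomodulin, had 122 and 116 against 97.9 and 88.0 CPM (adjusted p = 0.578). No call was made among the 23 immediate early, 23 interferon response or 18 glucocorticoid and clock genes tested.

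Against arterial cells the differences were wider. By the same test, 286 of 8140 genes were higher in venous cells (3.51%) and 346 lower (4.25%), or 7.76% in either direction, and 644 and 752 had an unadjusted p under 0.05. By DESeq2 74 and 116 genes passed, and in cells of at least 3000 UMIs 55 and 74 did. Arterial cells were chosen by arterial genes, so genes that accompany those are bound to differ. Of 20 arterial genes outside the rule 18 fell and none rose, with a median log2 difference of -2.004. Mgp, matrix Gla protein, had 42.6 and 56.2 CPM in venous and 1516 and 1207 CPM in arterial cells (-4.81 ± 0.20 SE, adjusted p = 1.56e-07). Efnb2, the arterial ligand ephrin-B2, had 13.2 and 10.9 against 66.9 and 94.6 CPM, and Gja4, which encodes the gap junction protein connexin 37, had 25.3 and 15.6 against 166 and 141 CPM (-2.71 and -2.92, adjusted p = 7.06e-04 and 2.25e-04). Cytl1 was not found in venous cells and had 127 and 94.6 CPM in arterial cells, a level at least 59.7-fold lower in venous cells. No value of these 4 genes overlapped between the types, as for 44.1% of all genes tested.

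Of the 13 venous genes tested 7 rose and none fell against arterial cells, with a median of 1.22. Lrg1 was not found in arterial cells either, a level at least 34.3-fold higher in venous cells. Nrp2 had 30.4 and 49.96 CPM in venous and 6.92 and 2.10 CPM in arterial cells (log2 difference 3.11, adjusted p = 0.00736). Flrt2, an adhesion protein with fibronectin and leucine-rich repeats, had 41 and 35 UMIs in venous cells and 0 and 1 in arterial cells, too few for a fold (adjusted p = 7.88e-04). Il1r1, Ctsc, Ackr3 and Tgm2 were the other members of the list that rose, by 3.03, 1.98, 1.22 and 0.66 on the log2 scale. Vcam1, which parted venous from capillary cells, had 96.3 and 111 against 104 and 147 CPM here, overlapping values with an adjusted p of 0.570.

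Transport genes differed between venous and arterial cells, where 14 of 25 rose and 2 fell (median 0.73). Car4 had 2281 and 2245 CPM in venous and 18.5 and 37.8 CPM in arterial cells (6.32 ± 0.16 SE, adjusted p = 1.59e-09). Slc16a1, the lactate and ketone transporter, had 460.3 and 367 against 43.8 and 54.7 CPM, and Slc7a5, the large neutral amino acid transporter, had 1261 and 1082 against 334 and 347 CPM (3.06 and 1.78, adjusted p = 1.45e-06 and 4.91e-07). Tfrc, the transferrin receptor, had 150.04 and 206 against 16.1 and 52.6 CPM and Slc40a1, the iron exporter ferroportin, had 375 and 362 against 96.9 and 149 CPM (2.36 and 1.59, adjusted p = 2.25e-04 and 1.27e-04). The metal-binding genes Mt1 and Mt2 rose with them, by 1.91 and 2.14. The 2 genes of this list that fell were Slc6a6, the taurine carrier, and Cav1, the caveola protein, with log2 differences of -0.86 and -0.42.

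Class I presentation, interferon response and immediate early genes were lower in venous than in arterial cells where they passed, save for 2 genes. Of 15 class I genes tested 7 fell and none rose (median -0.43). B2m had 479 and 682 CPM in venous and 791 and 1062 CPM in arterial cells (-0.67 ± 0.09 SE, adjusted p = 4.71e-04), while H2-K1 had 699.5 and 987 against 752 and 1127 CPM, which overlapped (adjusted p = 0.416). Of 23 interferon response genes 4 fell and none rose, among them Ifitm3, an antiviral membrane protein, at 1321 and 1568 against 2533 and 2908 CPM (-0.91, adjusted p = 8.16e-06). Of 23 immediate early genes 8 fell, including Fos at 10.1 and 28.1 against 102 and 122 CPM (-2.63, adjusted p = 3.02e-04), and Ier3 and Cebpd rose. Of 16 haemostasis genes 2 rose and 5 fell. Edn1, which encodes the vasoconstrictor endothelin-1, had 156 and 106 against 473 and 488 CPM (-1.86, adjusted p = 2.04e-05).

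The comparisons share the venous sums, so their calls are set side by side without a test. Higher in both were 9 genes, among them Cyp2e1, Fxyd6, Hs3st1, Il1r1, Lrg1, Rnase4, Tgm2 and Tmsb10, which make up 60.0% of the genes higher than in capillary cells and 3.15% of those higher than in arterial cells. Lower in both were 7 genes, Alpl, Glul, Hey1, Lypd1, Selenop, Stmn2 and Timp3, or 58.3% and 2.02% of those lists.

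**Figure D2:**
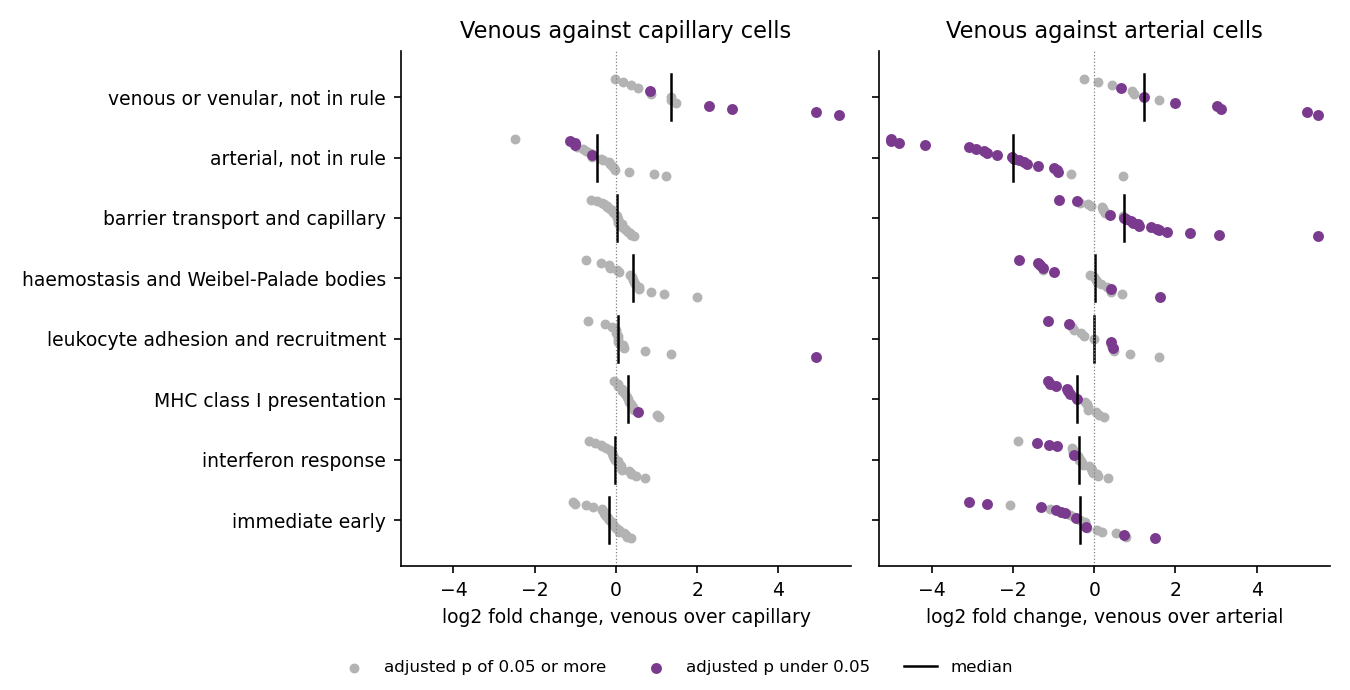
Log2 differences (horizontal axis) of the tested genes of 8 lists between venous and capillary cells (left) and between venous and arterial cells (right), 1 point a gene, with purple for an adjusted p under 0.05 by edgeR, grey for the rest and a black bar at the list's median. Points beyond -5 or 5.5 are drawn at those edges. Against capillary cells the coloured points are 5 venous, 4 arterial and 1 class I gene, with Vcam1 shown again under leukocyte adhesion, and against arterial cells 18 arterial genes lie to the left and 14 transport genes to the right.

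Venous cells made up a smaller share of the endothelial cells in the Mr1-/- library. The share was 20.95% (19.0 to 23.1%, exact 95% binomial interval) for Mr1+/+ and 13.9% (12.3 to 15.7%) for Mr1-/-, a difference of -7.05 percentage points (Newcombe 95% interval -9.69 to -4.42). Of all filtered cells the members were 5.14% and 4.30%. The intervals cover counting error only, here and for all ratios below. Tmem252, a gene of the rule, had 392 and 238 CPM in cells with 1 venous gene and 305 and 96.7 CPM in arterial cells. In the cells with 1 venous gene, Vwf had 123 and 190 CPM and Slc38a5 had 117 and 173 CPM. Both groups were themselves chosen by their number of venous genes, so these levels are a description only. With Tmem252 left out of the rule, an alternative added after the data were seen, 126 and 109 members remained, with shares of 8.12% and 6.67% and a difference of -1.45 points (-3.29 to 0.371). Of all filtered cells the shares were then 1.99% and 2.07%. With at least 3 venous genes the shares of endothelial cells were 5.35% and 3.25%. With cells thinned to 1500 UMIs, and cells of fewer UMIs left out, they were 14.05% (175 of 1246) and 8.86% (124 of 1400).

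**Figure D3:**
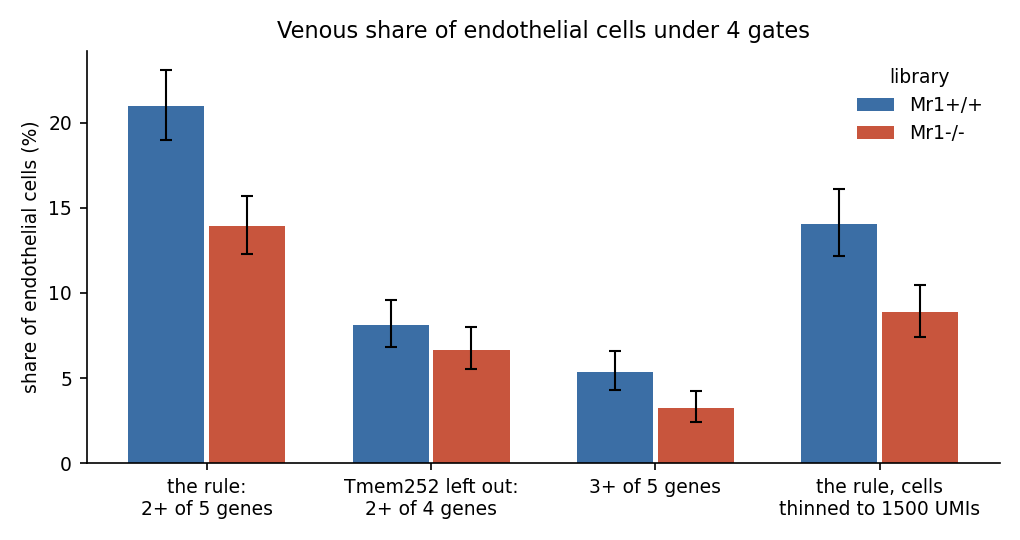
Share of endothelial cells that were venous (vertical axis, percent, from 0) in the Mr1+/+ library (blue) and the Mr1-/- library (red) under the rule, with Tmem252 left out, with at least 3 venous genes, and with cells thinned to 1500 UMIs. Cells under 1500 UMIs were left out of the thinned shares. Error bars are exact 95% binomial intervals for counting error only. The bars stand at 20.95% and 13.9% under the rule and at 8.12% and 6.67% without Tmem252, where the intervals overlap.

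Within the members the 5 venous genes of the rule did not differ in 1 direction between the libraries. Each member had to carry at least 2 of them, so their ratios follow in part from the choice and are a description only. The ratio of CPM, Mr1-/- over Mr1+/+, was 1.05 (0.913 to 1.21) for Vwf, 1.34 (1.14 to 1.57) for Slc38a5, 0.84 (0.734 to 0.96) for Tmem252 and 0.834 (0.497 to 1.37) for Nr2f2. Lcn2 had a ratio of 2.65 (1.8 to 3.95), but its 43 UMIs came from 28 cells in the Mr1+/+ library while its 74 UMIs came from 7 cells in the Mr1-/- library, 43 of them from 1 cell. Ackr1 had 12 UMIs in 5 cells and 91 UMIs in 2 cells, and all 12 Selp UMIs were in 1 Mr1-/- cell. The levels of these 3 genes thus rested on few cells in the Mr1-/- library.

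Between genotypes, 4948 genes with at least 50 UMIs over both libraries were compared within the members. After adding 10 CPM to each side, 100 genes were more than 1.5-fold higher in the Mr1-/- library (2.02%) and 142 more than 1.5-fold lower (2.87%), or 4.89% either way, and the median log2 ratio of all genes was -0.00391. There is no test, since each genotype is 1 library.

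Glucocorticoid-induced and clock genes were lower in the Mr1-/- members. All 14 with enough UMIs had a ratio below 1, 7 were more than 1.5-fold lower, 10 had an interval below 1, and the median log2 ratio was -0.56. Of all 4948 genes, 2513 had a ratio below 1 and 260 an interval below 1. Tsc22d3, which encodes the glucocorticoid-induced leucine zipper GILZ, had 1314 and 696 CPM in the Mr1+/+ and Mr1-/- members, a ratio of 0.530 with a 95% counting interval of 0.475 to 0.591, given in the same order below. Ddit4, an inhibitor of mTOR signalling, had 778 and 362 CPM (ratio 0.466, 0.4005 to 0.540), and Dusp1, a MAP kinase phosphatase, had 351 and 166 CPM (ratio 0.472, 0.376 to 0.588). Ctla2a, a cathepsin inhibitor, had 1040.2 and 564 CPM, Cdkn1a, the cell cycle inhibitor p21, had 1268 and 835 CPM, and the clock gene Per1 had 50.7 and 14.1 CPM, with ratios of 0.542, 0.659 and 0.277. The capillary cells of the same libraries had ratios of 0.611 for Tsc22d3, 0.511 for Ddit4, 0.604 for Dusp1, 0.550 for Ctla2a, 0.695 for Cdkn1a and 0.589 for Per1. The lower level was therefore also present in capillary cells.

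Heat shock chaperones were placed in the same direction, with 11 of 13 genes below 1, 1 of them more than 1.5-fold lower, and a median of -0.34. Hspa8, the constitutive HSC70 chaperone, had 2091 and 1493 CPM (ratio 0.714, 0.660 to 0.771), and Dnaja1, its co-chaperone, had 663 and 397 CPM (ratio 0.598, 0.515 to 0.692). The capillary ratios were 0.676 for Hspa8 and 0.540 for Dnaja1. Immediate early genes had no common direction, with 8 of 19 above 1 and a median of -0.02. Of the 19, 2 had an interval above 1 and 5 below, against 230 and 260 of all 4948 genes. Klf2, the flow-induced transcription factor, had 2421 and 1800.2 CPM (ratio 0.744, 0.693 to 0.798) and Cebpd had 303 and 169 CPM (ratio 0.556, 0.442 to 0.695), while Jund had 599 and 595 CPM (ratio 0.993, 0.871 to 1.13).

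Class I presentation genes were higher in the Mr1-/- members. Of 14 genes 11 had a ratio above 1, 3 were more than 1.5-fold higher, 7 had an interval above 1 and none below, and the median log2 ratio was 0.43. Of all 4948 genes, 2435 had a ratio above 1 and 230 an interval above 1. The microglial markers moved the same way in the members, from 584 to 1051 CPM. Among them was C1qa, a complement gene that the rule limits, with a ratio of 1.62 (1.21 to 2.17). Its UMIs lay in only 8 Mr1+/+ and 3 Mr1-/- members, and the interval does not cover this. The part of microglial RNA in the class I difference was not tested beyond leaving out members with a gene of other types, where the class I list's median was 0.38. H2-K1 had 699.5 and 987 CPM (ratio 1.41, 1.26 to 1.57), B2m had 479 and 682 CPM (ratio 1.43, 1.25 to 1.63) and H2-D1 had 741 and 874 CPM (ratio 1.18, 1.05 to 1.32). All 3 were thus higher by more than the counting error. The non-classical gene H2-Q6, which is near-identical to other H2-Q genes so that its reads may be split among them, had 29.4 and 54.6 CPM (ratio 1.86, 1.10 to 3.15). The capillary ratios were 1.41 for H2-K1, 1.33 for B2m and 1.16 for H2-D1. Interferon response genes had no common direction, with 11 of 22 above 1 and a median of 0.02. Ifitm3 had 1321 and 1568 CPM (ratio 1.19, 1.09 to 1.29), and Usp18, which restrains interferon signalling, had 51.7 and 20.3 CPM (ratio 0.393, 0.196 to 0.732).

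Transport genes were mostly somewhat lower, with 19 of 25 below 1, 2 more than 1.5-fold lower and a median of -0.13. Of the 25, 3 had an interval above 1 and 7 below. Slc2a1 had 2080.3 and 1322 CPM (ratio 0.636, 0.586 to 0.689), with a capillary ratio of 0.669, while Car4 had 2281 and 2245 CPM (ratio 0.984, 0.921 to 1.05) and Tfrc had 150.04 and 206 CPM (ratio 1.37, 1.08 to 1.75). Of the 14 other venous genes 10 were above 1, 2 of them more than 1.5-fold higher and 1 gene more than 1.5-fold lower. Their median was 0.21, and it was 0.00296 with cells thinned to 1500 UMIs and shallower cells left out. Lrg1 had 92.3 and 145 CPM (ratio 1.57, 1.17 to 2.12) and Tgm2 had 235 and 254 CPM (ratio 1.08, 0.880 to 1.33). Vcam1 had 96.3 and 111 CPM with a ratio of 1.15 (0.834 to 1.58), so a difference was not detectable at this depth. Of 13 leukocyte adhesion genes 8 were above 1 (median 0.02), with Cxcl12, the chemokine held on endothelial surfaces, at 1395 and 1180.4 CPM (ratio 0.846, 0.773 to 0.925).

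The 12 genes with the lowest and the 12 with the highest ratios were mostly low in level. The lowest included Reln, which encodes the secreted protein reelin, at 51.7 and 7.81 CPM, whose 51 Mr1+/+ UMIs lay in 7 cells, and Gimap6, a GTPase of immune and endothelial cells, at 233 and 116 CPM (ratio 0.495, 0.376 to 0.647). The highest besides Ackr1 and Lcn2 included Gbp4, an interferon-induced GTPase, at 25.3 and 64.0 CPM (ratio 2.53, 1.4997 to 4.33), and Cyp2e1 at 40.6 and 92.1 CPM (ratio 2.27, 1.495 to 3.48). Cyp2e1 UMIs lay in 10 Mr1+/+ and 15 Mr1-/- cells. The capillary ratios were 0.745 for Gimap6 and 3.19 for Gbp4.

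**Figure D4:**
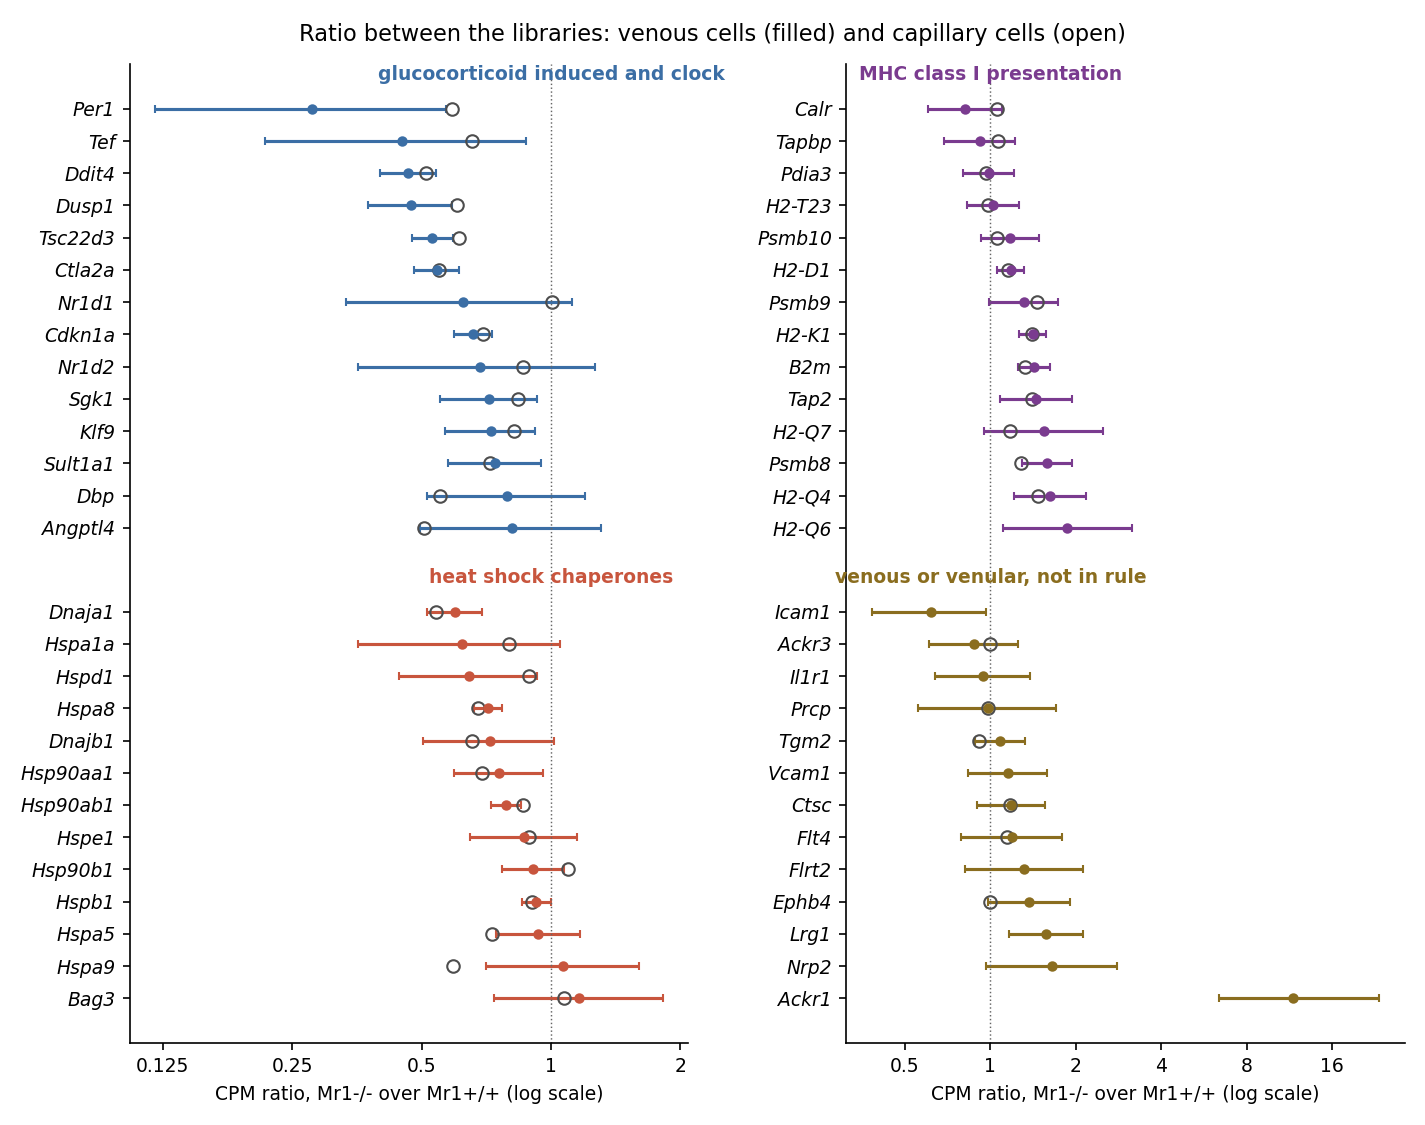
Ratio of CPM, Mr1-/- over Mr1+/+ (horizontal axis, log scale), for the genes of 4 lists with at least 50 UMIs, 1 venous gene left out. Filled points are venous cells with exact 95% counting intervals, and open circles are the ratios in capillary cells where these had at least 50 UMIs. All 14 glucocorticoid and clock genes lie left of 1 in venous cells, 11 of 13 chaperones lie left of 1, and 11 of 14 class I genes lie right of 1, while Ackr1 stands apart at 11.7 on 12 and 91 UMIs.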

How the data were processed

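Each genotype has 1 deposited matrix of UMI counts by gene and barcode, which the authors left without normalization. The submitters' processing notes name Cell Ranger 5.1.0, STAR and the mm10 build, while the matrix header names Cell Ranger 3.1.0, per the file headers. No source used here names the annotation behind the counts. The tables list 31053 genes, of which 30934 were found by ID in a GENCODE annotation of mm10, which gave the positions.

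Barcodes were kept with 300 or more genes and no more than 10% of UMIs from mitochondrial genes, 6327 of 6410 and 5278 of 5347. Cells were not clustered. Doublets were marked with Scrublet in scanpy 1.11.5 (expected rate 0.05), which called 335 cells (5.29%) and 171 cells (3.24%), and were left in for the reported values. Microglia and mural cells, used for background levels, were classed by marker genes.

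UMIs were summed by library and type and divided by the type's total to give CPM. Venous, capillary and arterial sums (6 in all) entered edgeR 4.0.16 under R 4.3.3, with TMM scaling, filterByExpr, a library term and glmQLFTest. Benjamini-Hochberg adjustment ran over the 8140 genes outside the 22 rule genes, and 0.05 was the threshold. The library term makes the comparison within libraries. The script recovered known changes in simulated counts.

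Genotypes were compared by CPM ratios with exact conditional binomial 95% intervals, and shares by Clopper-Pearson and Newcombe intervals, with the limit for a count of 0 set at 3 counts. A gene counted as past 1.5-fold after adding 10 CPM to each side. Named genes were the 12 highest and 12 lowest calls above 50 CPM in each comparison of types, the 12 highest and 12 lowest ratios between genotypes (leaving out mitochondrial, ribosomal, haemoglobin and sex-linked genes and genes under 0.2 times the level of the class where they are highest), and members of the 16 lists with the most UMIs or the largest changes. Rule genes, Mr1 and a few venous and capillary genes of known function that fell outside this (such as Ephb4, Mfsd2a and Selp) were named after their values were seen. A few genes counted in these lists are not reported here by name. The members, the lists and the tests were chosen with earlier results of these data known. Alternatives covered the filters, the rule, doublets, thinning, DESeq2 1.42.0 and scaling.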

Additional observations from a re-analysis of the deposited data

Results flagged for a closer look

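Of the named genes compared between genotypes, 3 had ratios whose counting intervals lay on opposite sides of 1 in venous and capillary cells. Adamts1, a secreted matrix protease, had a ratio of Mr1-/- over Mr1+/+ of 2.46 in venous cells and 0.559 in capillary cells. Icam1, the adhesion molecule for leukocyte integrins, had 0.616 in venous cells and 2.08 in capillary cells. Cebpb, an inflammatory transcription factor, had 1.85 in venous cells and 0.602 in capillary cells. With 1 library per genotype these differences between the types were not tested. The share of all genes with such opposite intervals is not given here, so the 3 genes are a description only. Few cells carried these transcripts: 5 venous cells held 70% of the Mr1-/- Adamts1 UMIs and 63.9% of the Mr1-/- Cebpb UMIs.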

How the results depend on the processing

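The venous share of endothelial cells stayed lower in the Mr1-/- library under every alternative run, but the difference was -2.11 points with at least 3 venous genes and -1.45 points with Tmem252 left out of the rule, where the share of all filtered cells turned to 0.0737 points higher. The number of genes higher and lower in venous than in capillary cells stayed within 1.5 times under 6 of 16 alternatives (the 3 cell filters, the rule without Nr2f2, DESeq2 size factors and no block) and moved under the others: 61 and 56 without called doublets, 43 and 23 with at least 3 venous genes, 59 and 42 with no gene of other types, 57 and 56 thinned, 83 and 47 without Tmem252, 110 and 123 without a filter on low counts, 50 and 42 with 1 venous gene allowed in capillary cells, 44 and 28 with only the types compared, 3 and 1 by DESeq2, and 3 and 8 in cells of at least 3000 UMIs. The direction held for 13 of the 13 higher genes still tested without doublets and for 7 of 9 lower genes. Against arterial cells the numbers were 139 and 171 with at least 3 venous genes, 186 and 193 thinned, 74 and 116 by DESeq2, and 55 and 74 in cells of at least 3000 UMIs. Between genotypes, 57 and 77 genes passed 1.5-fold after thinning, 189 and 244 with no CPM added and 27 and 56 with at least 100 UMIs. Without the library as a replicate block, 13 and 9 genes passed against capillary and 244 and 296 against arterial cells.

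Signs turned for microglial genes against capillary cells: Lgmn to 0.55 without doublets, Tmem119 to 0.0219 with at least 3 venous genes, and Lgmn to 0.0742 with no gene of other types. Between genotypes, Spock2 turned to -0.0109 with at least 3 venous genes, Ifnar1 to -0.0469 without Tmem252, and the arterial list's median to 0.0941 and 0.0402 under these choices. The causes were not tested. The medians of the glucocorticoid and clock list (-0.92 to -0.52), the chaperones (-0.44 to -0.27) and class I presentation (0.27 to 0.46) kept their signs in all 15 settings. The venous list's median ranged from 0.00296 (thinned) to 0.239, and the interferon list's from -0.0631 to 0.336 (at least 3 venous genes). Leaving out a library leaves no residual degrees of freedom for the tests of types, so no count of calls was made. Depth limits genes under 50 UMIs.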
